A study of Mus musculus with 14 samples.

Results

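The comparison described here sets FLAG peaks against H3K4me3 peaks inside the same WT-Tag culture. It takes the 6 WT-Tag peak lists of the 12 peak lists analysed, namely the FLAG list and the H3K4me3 list of each of the cultures NSH-D, NSH-E and NSH-F, on chromosomes 1 to 19. FLAG was represented by 32466 peaks in NSH-D, 46880 in NSH-E and 46395 in NSH-F, and H3K4me3 by 30884, 31483 and 31133 peaks in the same order. For every FLAG peak the position of its summit was related to the nearest H3K4me3 summit and to the nearest H3K4me3 edge, and every H3K4me3 peak was asked whether it held a FLAG peak.

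All cultures were neural stem cells grown as neurospheres from mouse hindbrain at embryonic stage e15.5, profiled by ChIP-seq. The WT-Tag cultures carried Nestin-cre with the allele H3f3aLSL-WT-Tag/+, so that a tagged wild-type histone H3.3 is made from the modified H3f3a allele once Cre has acted. The K27M-Tag cultures NSH-A, NSH-B and NSH-C carried Nestin-cre with H3f3aLSL-K27M-Tag/+, and served here only to show where the WT-Tag cultures differ. Nestin-cre and a tag on H3.3 were thus common to all 6 cultures, and Cre expression followed the Nestin driver, which is active in neural stem and progenitor cells. NSH-D and NSH-E were labelled female and NSH-F male, and all K27M-Tag cultures female. A culture without the tag was not analysed here, so the FLAG signal of untagged chromatin is not known. The labels do not say whether the cultures came from separate embryos, so the spread between them may be partly technical. Peak lists hold no expression values, so the labelled cell type could not be checked against marker genes.

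H3.3 is the histone H3 variant that is placed into chromatin outside DNA replication. The HIRA complex places it at promoters, enhancers and transcribed genes, and ATRX with DAXX places it at telomeres and other repeats. H3K4me3 is written by the SET1 and MLL methyltransferase complexes and marks the start sites of active and poised genes, and its broadest domains are known from genes that define a cell's identity. FLAG ChIP reads the tagged H3.3 and H3K4me3 ChIP reads the promoter mark, so the distance between their peaks describes where the tagged histone was found relative to marked promoters.

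Read totals are not in the lists, and depth was instead recovered from the deposited fold and p of the peaks. The most common background coverage was 3.09, 3.45 and 3.33 fragments per base for FLAG in NSH-D, NSH-E and NSH-F, and 2.89, 2.90 and 3.24 for H3K4me3. FLAG peaks were low and narrow, with a median deposited fold enrichment of 4.28, 4.13 and 4.16 and a median width of 265, 309 and 304 bp. H3K4me3 peaks had a median fold of 10.0, 12.02 and 11.8 and a median width of 792, 847 and 828 bp. NSH-D had the lowest FLAG background coverage of the WT-Tag cultures and the fewest and narrowest FLAG peaks. The local background at the summit exceeded 1.5 times the background coverage at 33.9%, 33.6% and 34.1% of WT-Tag H3K4me3 peaks and at 8.76% to 10.9% of K27M-Tag H3K4me3 peaks. The labels name a composite input for each genotype, which may have served as a common control for all lists of that genotype. The part of the local background in the results was not tested beyond the values given beside them.

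Most FLAG summits of the WT-Tag cultures lay outside H3K4me3 peaks, although H3K4me3 peaks held far more of them per base than the rest of the chromosomes. In NSH-D 5128 FLAG summits fell inside an H3K4me3 peak, which is 15.8% of the list. NSH-E had 7044 such summits, 15.0% of its list, and NSH-F had 6561, 14.1% of its list. The mean was 15.0% ± 0.827 (SD, n = 3), while H3K4me3 peaks covered 1.51% ± 0.0604 (SD, n = 3) of the chromosome span. The large majority of summits in each culture were in chromatin without an H3K4me3 peak. Counting any shared base in place of the summit raised the shares to 19.7%, 18.98% and 17.6%.

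The distance from a FLAG summit to the nearest H3K4me3 summit spread over several orders of magnitude. Its median was 5382.5 bp in NSH-D, 6359 bp in NSH-E and 7155 bp in NSH-F. The quartiles were 1103 and 19325 bp in NSH-D, 1343 and 20831 bp in NSH-E and 1445.5 and 23086.5 bp in NSH-F. The 3 distributions were alike in shape, with NSH-D shifted toward shorter distances and NSH-F toward longer ones. A FLAG summit stood within 100 bp of an H3K4me3 summit in 6.16%, 5.35% and 5.05% of cases and within 1000 bp in 23.5%, 20.5% and 19.6%. Within 50 kb the shares were 90.9%, 90.2% and 89.1%. Isolated FLAG peaks existed as well, and the farthest stood 1.14 Mb from an H3K4me3 summit in NSH-D, 1.25 Mb in NSH-E and 1.33 Mb in NSH-F. Close FLAG summits showed no preferred side in chromosome coordinates, with 50.3%, 49.3% and 50.5% of those within 1000 bp lying at the higher coordinate. Gene strand was not available for these positions, so upstream and downstream of a start site could not be separated.

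**Figure D1:**
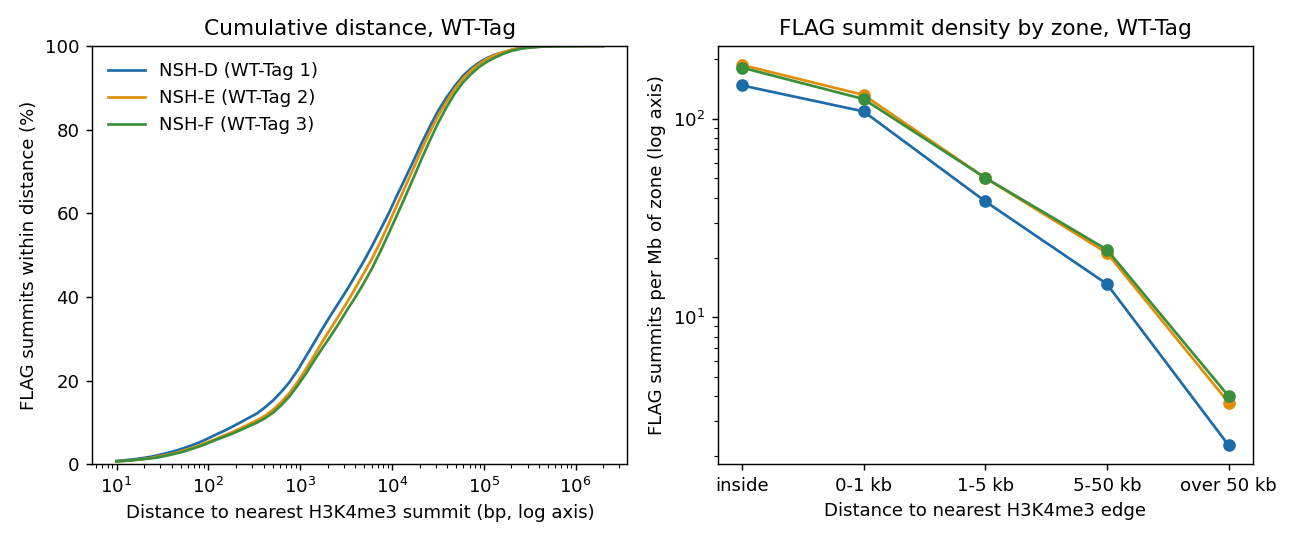
Left, cumulative share of FLAG summits (%) within a given distance (bp, log axis) of the nearest H3K4me3 summit, 1 line per WT-Tag culture. Right, FLAG summits per Mb (log axis) in 5 zones by distance to the nearest H3K4me3 edge, where density falls from 147 to 186 inside peaks to 2.27 to 4.02 beyond 50 kb.

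FLAG summit density fell at every step away from H3K4me3 in each WT-Tag culture. Inside H3K4me3 peaks it was 147, 186 and 180 summits per Mb in NSH-D, NSH-E and NSH-F. In the first 1 kb outside an edge it was 109, 132 and 125 summits per Mb, not far below the peaks themselves. From 1 to 5 kb it was 38.3, 50.3 and 50.4, and from 5 to 50 kb it was 14.7, 21.1 and 21.9 summits per Mb. Beyond 50 kb it was 2.27, 3.73 and 4.02 summits per Mb, in a zone that made up 51.6% ± 1.49 (SD, n = 3) of the span and held 9.77% ± 0.873 (SD, n = 3) of FLAG summits. The ratio of the density inside H3K4me3 to that beyond 50 kb was 64.6 in NSH-D, 49.9 in NSH-E and 44.9 in NSH-F. The span was not corrected for bases where reads cannot map. The zone from 5 to 50 kb held the most FLAG summits in number, 41.8% ± 1.70 (SD, n = 3) of each list, at about the density of the whole span (1.09, 1.08 and 1.14 times the mean).

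Summits outside H3K4me3 lay at a median of 7564 bp from the nearest edge in NSH-D, 8445.5 bp in NSH-E and 9385 bp in NSH-F. Their lower quartiles were 1624, 1991 and 2272 bp, and their upper quartiles 23034.5, 24264 and 26684 bp. Counting summits inside peaks as well, 51.0%, 48.3% and 45.9% of all FLAG summits lay in a peak or within 5 kb of its edge. NSH-D was again the culture with FLAG nearest to H3K4me3, and it was also the culture with the shortest FLAG list.

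A finer profile across the edge showed where inside and outside the peaks FLAG summits gathered. The 250 bp just inside the edge had the highest density of all bins, 220 summits per Mb in NSH-D, 278 in NSH-E and 262 in NSH-F. Deeper into the peaks the density fell, to 77.0, 98.5 and 102 summits per Mb at 750 to 1000 bp from the edge, a depth that only peaks wider than 1500 bp contain. That bin was the lowest inside in NSH-D, NSH-E and NSH-F, and at 1250 to 1500 bp inside the density was again higher, at 109.8, 122 and 115 summits per Mb. The 250 bp just outside the edge had 119, 143 and 130 summits per Mb, and the next 250 bp had 125, 147 and 146. In all 3 cultures the FLAG density between 250 and 500 bp outside, over peaks of all widths, was thus above that in the bins from 750 to 1500 bp inside. By 4750 to 5000 bp outside it had fallen to 26.8, 37.6 and 37.2 summits per Mb. Narrow H3K4me3 peaks contribute inside only to the bins near the edge, but outside to every bin. They are the peaks with the most FLAG summits per kb, as given by width below. The inside bins from 750 bp come from wide peaks alone, and the outside bins from all peaks. Flank and interior of the same peaks were thus not compared.

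**Figure D2:**
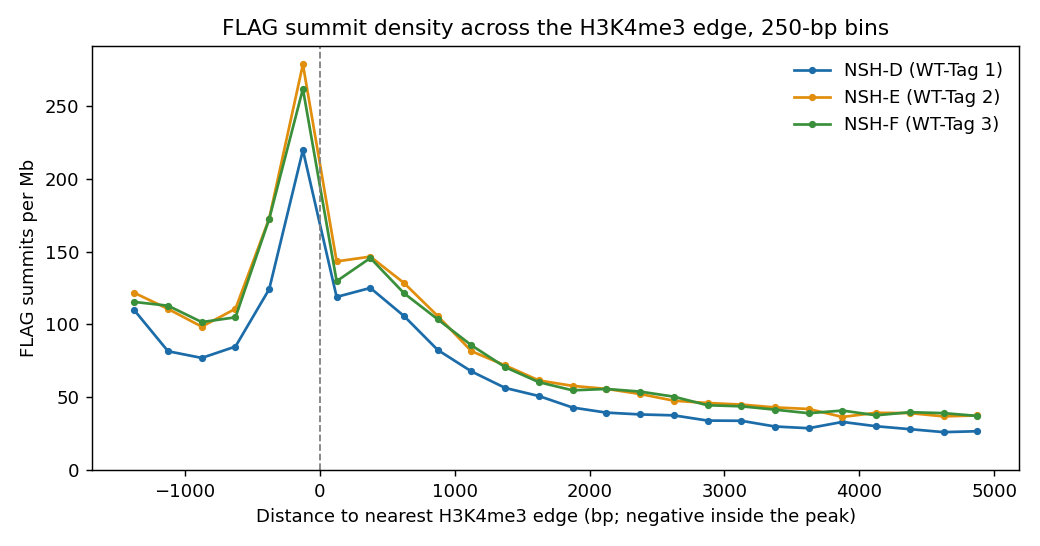
FLAG summits per Mb (vertical axis) in 250-bp bins by distance to the nearest H3K4me3 edge (horizontal axis, bp, negative inside the peak), 1 line per WT-Tag culture and a dashed line at the edge. The bin just inside the edge stands at 220 to 278 summits per Mb, with a dip to 77.0 to 102 at 750 to 1000 bp inside and a shoulder of 125 to 147 at 250 to 500 bp outside.

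Short gaps between neighbouring H3K4me3 peaks were also looked at apart from the outer flanks, since H3.3 is known to mark the unstable nucleosomes around start sites. Gaps of at most 1 kb numbered 7626 in NSH-D, 6313 in NSH-E and 7005 in NSH-F, and together covered 1.80, 1.503 and 1.69 Mb. They held 269, 216 and 234 FLAG summits, or 149, 144 and 138 summits per Mb. The outer flanks within 1 kb had 107, 131 and 125 summits per Mb. FLAG was denser in the gaps than in the flanks in 3 of 3 cultures, but gap bases lie within 500 bp of an edge. In the bins of 0 to 250 and 250 to 500 bp outside, given above, the density was 119 and 125 in NSH-D. It was 143 and 147 in NSH-E and 130 and 146 in NSH-F. The gaps thus stood above the bin of 0 to 250 bp in all 3 cultures, though barely in NSH-E. They stood above the bin of 250 to 500 bp in NSH-D alone. Both bins include gap bases, and gaps and flanks were not matched by distance. The gaps held only 5.18%, 3.20% and 3.77% of the FLAG summits lying within 1 kb outside an edge.

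FLAG presence did not rise steadily with H3K4me3 width. It fell over the first 3 width classes and was highest in the widest class. The classes are under 0.5, 0.5 to 1, 1 to 2, 2 to 4 and at least 4 kb, with the lower limit of a class included in it. Among H3K4me3 peaks under 0.5 kb wide, 21.1% in NSH-D, 27.3% in NSH-E and 24.7% in NSH-F shared at least 1 bp with a FLAG peak. At 0.5 to 1 kb the shares were 16.7%, 24.5% and 22.4%. The lowest shares were those of H3K4me3 peaks of 1 to 2 kb, at 13.3%, 19.4% and 18.2%. They rose to 20.7%, 26.8% and 27.8% at 2 to 4 kb. In the widest class, 4 kb or more, 252 of 515 H3K4me3 peaks in NSH-D held FLAG (48.9%), 381 of 667 in NSH-E (57.1%) and 327 of 570 in NSH-F (57.4%). The dip at 1 to 2 kb and the maximum at 4 kb or more were present in each culture, and NSH-D had the lowest share of the 3 cultures in every class.

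The widest class exceeded the narrowest by 27.8 percentage points in NSH-D, 29.8 in NSH-E and 32.7 in NSH-F, a mean of 30.1. A two-sided exact sign-flip permutation test over the 3 cultures gave p = 0.25, the smallest p that 3 cultures allow. The contrast belongs to the extreme class, which holds 1.67% to 2.12% of H3K4me3 peaks. With 5 classes of equal size by width rank the widest exceeded the narrowest by 2.65 points, and with the top 50% of FLAG peaks by score the fixed classes differed by 19.7 points. The local background was above 1.5 times the background coverage at 48.5%, 47.5% and 48.2% of the widest H3K4me3 peaks and at 18.6% to 19.4% of the narrowest. Among widest peaks below that limit FLAG was present at 45.3%, 58.6% and 59.0%, and the mean contrast with the narrowest class was then 30.0 points.

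Wide peaks offer more bases, and per base the order was different. FLAG summits per kb of H3K4me3 were highest in peaks under 0.5 kb, at 0.433 in NSH-D, 0.534 in NSH-E and 0.495 in NSH-F. They fell to 0.0919, 0.127 and 0.122 at 1 to 2 kb and were 0.0905, 0.114 and 0.118 at 2 to 4 kb. At 4 kb or more they rose again to 0.168, 0.192 and 0.184 per kb. The widest peaks therefore had more FLAG summits per kb than those of 1 to 4 kb in each culture, and fewer than the narrowest. A widest peak that held FLAG summits inside held 1.85, 1.83 and 1.73 of them on average, with up to 10 in NSH-D, 8 in NSH-E and 7 in NSH-F.

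Presence by a shared base depends on the width of both peaks, so the summit was used as a second measure. A FLAG summit lay inside 13.0%, 16.4% and 15.1% of the narrowest H3K4me3 peaks and inside 11.6%, 16.0% and 15.46% of those of 1 to 2 kb. By this measure peaks of 1 to 2 kb differed from the narrowest by -1.35, -0.39 and 0.35 percentage points in the 3 cultures, so the dip relative to the narrowest class was not kept in all of them. The widest class stood apart by this measure too, at 47.8%, 54.9% and 55.8%. Seen from the H3K4me3 side, the median distance from an H3K4me3 summit to the nearest FLAG summit was 7449, 4685.5 and 5048 bp in the narrowest class. It was 14923, 8165 and 8085 bp at 1 to 2 kb and 2750, 2066 and 2120 bp in the widest class.

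**Figure D3:**
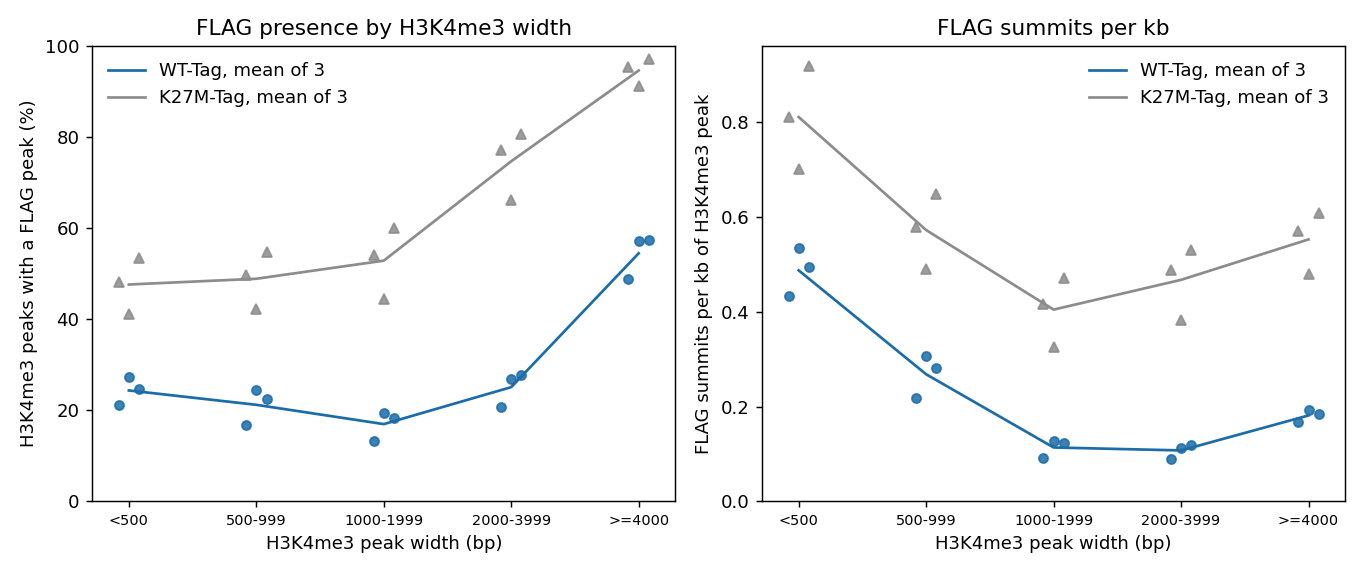
Left, share of H3K4me3 peaks (%) sharing at least 1 bp with a FLAG peak, by H3K4me3 width class (bp), with 1 point per culture and a line through the mean of 3. Right, FLAG summits per kb of H3K4me3 peak in the same classes. WT-Tag presence is lowest at 1 to 2 kb (13.3% to 19.4%) and highest at 4 kb or more (48.9% to 57.4%), and K27M-Tag lies above it in every class.

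Within each width class under 4 kb, FLAG was present more often at the weaker H3K4me3 peaks. The deposited fold of H3K4me3 was used to split each class at its median. Among peaks of 0.5 to 1 kb, FLAG was present at 24.8%, 35.4% and 32.5% of those at or below the median fold and at 8.59%, 13.5% and 12.4% of those above it. Under 0.5 kb the shares were 25.1%, 34.4% and 30.5% at the lower fold and 16.6%, 20.2% and 18.2% at the higher. At 1 to 2 kb they were 17.1%, 24.2% and 21.9% against 9.46%, 14.7% and 14.6%. The order was the same in 3 of 3 cultures in each class under 4 kb. In the widest class the shares were 48.8%, 55.4% and 55.8% at the lower fold and 49.0%, 58.9% and 58.9% at the higher. The order thus turned in 3 of 3 cultures, though barely in NSH-D, and this was not tested. FLAG summits per kb kept the order there, at 0.190, 0.199 and 0.198 at the lower fold and 0.149, 0.186 and 0.171 at the higher.

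How FLAG presence varied with the distance to the next H3K4me3 peak depended on the width class. Under 0.5 kb the shares with a neighbour at most 1 kb away were 20.4%, 28.6% and 24.1%, and those with none within 5 kb 20.6%, 24.9% and 24.5%. Between these groups no order was shared by the 3 cultures. Peaks with the nearest neighbour at 1 to 5 kb had the highest shares, 26.7%, 31.8% and 28.0%. That middle group was also highest in each culture at 2 to 4 kb and in the widest class. At 0.5 to 1 kb it was highest in no culture, and at 1 to 2 kb not in NSH-D. Peaks of 1 to 2 kb with another H3K4me3 peak at most 1 kb away had FLAG in 17.9%, 24.1% and 22.3% of cases. Those more than 5 kb from any other had FLAG in 9.75%, 16.1% and 14.8%. These isolated peaks had the least FLAG of all groups by width and neighbour distance in each culture. In the widest class the shares were 51.0%, 57.2% and 56.6% with a near neighbour and 43.6%, 55.0% and 56.9% without one within 5 kb, and the difference changed sign in NSH-F. Whether the difference by neighbour distance itself differs between width classes was not tested.

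Inside their H3K4me3 hosts, FLAG summits did not gather at the H3K4me3 summit of peaks of at least 2000 bp. The median distance from an inside FLAG summit to the summit of its host was 174.5 bp in NSH-D, 208 bp in NSH-E and 202 bp in NSH-F, with 208, 222 and 224 bp to the nearer edge. That summit distance grew from 61, 63 and 63 bp in the narrowest hosts to 1789.5, 1642 and 1717 bp in the widest. Wider hosts allow longer distances, so each FLAG summit was also placed on a percentile scale of its host's bases, where 0 is the base at the H3K4me3 summit, 100 the farthest base, and 50 the median if every base were equally likely. On that scale the median was 39.6, 41.1 and 40.9 in hosts under 0.5 kb and 37.3, 37.7 and 37.8 in hosts of 0.5 to 1 kb. It was 50.6, 54.8 and 53.7 at 1 to 2 kb. At 2 to 4 kb it was 60.4, 60.1 and 57.3, and at 4 kb or more 58.9, 58.7 and 57.6. In each culture FLAG summits were therefore nearer to the H3K4me3 summit than the host's typical base in peaks under 1 kb. They were farther from it in peaks of at least 2000 bp.

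In the widest hosts the 20% of bases farthest from the H3K4me3 summit held 27.5%, 26.0% and 26.7% of FLAG summits, and the nearest 20% held 16.7%, 14.5% and 15.3%. In widest hosts whose local background was at most 1.5 times the background coverage, the median percentile was 53.4, 57.8 and 57.3, so it stayed above 50 in each culture. Its mean moved from 58.4 to 56.2, more than the spread between cultures of 0.678. When H3K4me3 peaks were joined across gaps of up to 1000 bp, the median distance of inside FLAG summits to the host summit rose from 195 to 510 bp (each the mean of the medians of 3 cultures).

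**Figure D4:**
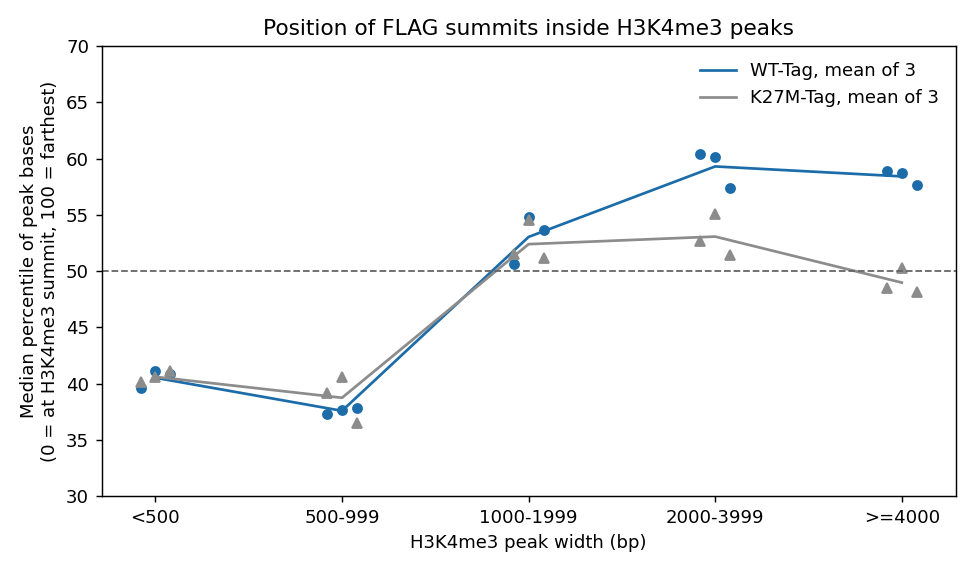
Median percentile of host bases at which inside FLAG summits fall (vertical axis, 0 at the H3K4me3 summit, 100 at the farthest base), by host width class (bp), with 1 point per culture and a line through the mean of 3. The dashed line at 50 is the value if every host base were equal. WT-Tag points lie below it in hosts under 1000 bp, at 50.6 to 54.8 in hosts of 1 to 2 kb and at 57.3 to 60.4 in hosts of 2000 bp or more.

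FLAG peaks with higher scores lay inside H3K4me3 more often. In the 10% of FLAG peaks with the lowest score, 12.6% of summits in NSH-D, 10.6% in NSH-E and 10.7% in NSH-F were inside. In the 10% with the highest score the shares were 25.5%, 25.8% and 22.4%, and in the top 1% they were 29.7%, 33.6% and 27.9%. Even in the top 1% of each list, most summits were outside. Over the same range the median distance to the nearest H3K4me3 summit fell from 6902, 7449 and 8303.5 bp to 2915, 3182 and 4388 bp.

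FLAG peaks inside H3K4me3 were also found again more often in the other WT-Tag lists. In NSH-D, 65.3% of FLAG peaks with an inside summit had an overlapping peak in both other lists, against 54.7% of those beyond 50 kb. In NSH-E the shares were 48.5% and 29.4%, and in NSH-F 48.2% and 29.7%. NSH-D peaks recurred most in every zone, and its list was the shortest. FLAG peaks inside H3K4me3 were slightly taller and wider than those beyond 50 kb, with a median recovered pileup of 20, 22 and 21 fragments against 19, 20 and 19 and a median width of 289, 354 and 339 bp against 250, 292 and 294 bp. Their local background exceeded 1.5 times the background coverage in 18.4%, 15.4% and 24.9% of cases, against 12.4%, 8.86% and 15.6% beyond 50 kb. The part of peak height and local background in recurrence was not tested.

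**Figure D5:**
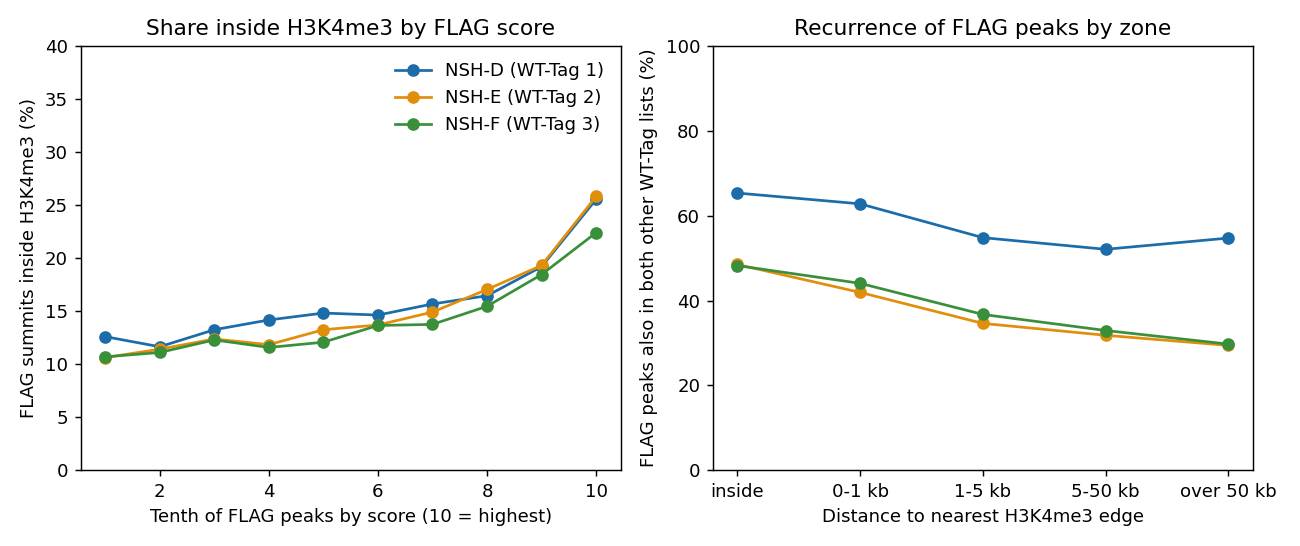
Left, share of FLAG summits inside H3K4me3 (%) in 10 equal groups of FLAG peaks by deposited score, 10 being the highest, 1 line per WT-Tag culture. Right, share of FLAG peaks (%) also present in both other WT-Tag lists, by zone. The share inside goes from 10.6% to 12.6% in the lowest group to 22.4% to 25.8% in the highest, and recurrence is highest inside H3K4me3 in each culture.

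Using the H3K4me3 list of another WT-Tag culture gave nearly the same shares as the matched list. FLAG summits of NSH-D were inside H3K4me3 peaks of NSH-D, NSH-E and NSH-F in 15.8%, 17.1% and 15.8% of cases. Those of NSH-E were inside in 13.7%, 15.0% and 13.9%, and those of NSH-F in 13.6%, 15.0% and 14.1%. The NSH-E list of H3K4me3 gave the highest share for each FLAG list and was also the longest of the 3. The matched list was the best one for NSH-E alone.

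Among chromosomes, FLAG summits were inside H3K4me3 most often on chromosomes 13 and 3. On chromosome 13 the share was 19.3% ± 2.30 (SD, n = 3), and on chromosome 3 it was 18.3% ± 1.78 (SD, n = 3). On the other chromosomes the mean share ran from 13.9% on chromosome 12 to 16.2% on chromosome 10. Chromosomes 13, 14 and 3 had the lowest mean FLAG density, at 11.7, 12.2 and 12.4 summits per Mb, and on chromosome 14 the share was 15.1%. K27M-Tag had mean shares of 33.1% on chromosome 13 and 31.7% on chromosome 3, also above its mean of 29.2% over all chromosomes. No test was made between chromosomes.

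Overlapping H3K4me3 peaks of the 3 WT-Tag lists were merged into 34579 regions, of which 23557 had a peak in all 3 lists. FLAG overlapped 3259 of these shared regions in all 3 cultures, 1982 in 2 cultures, 2529 in 1 culture and 15787 in none. Over all widths, presence in all 3 cultures was the most common outcome where FLAG was present at all. This did not hold at 1 to 2 kb, where 838 regions had FLAG in 1 culture and 765 in all 3, nor at 2 to 4 kb, with 785 and 750. Of the 699 shared regions with a mean of 4 kb or more under H3K4me3 peaks, 284 had FLAG in all 3 cultures (40.6%) and 197 in none (28.2%). In the 4 narrower classes FLAG was present in all 3 cultures at 9.99% to 14.9% of regions. Merging the FLAG lists gave 67898 regions, with 15625 in all 3 lists, and 34.8% of those touched an H3K4me3 region, against 20.7% of FLAG regions in 2 lists and 13.8% of those in 1 list. Merging can widen a region and wider regions touch more easily, and region width was not taken into account. Of the 15625 FLAG regions in all 3 lists, 957 lay over 50 kb from any WT-Tag H3K4me3 region. The share of all FLAG regions that lay as far is not given here, so the count is a description. On the other side, 12722 shared H3K4me3 regions (54.0%) had no FLAG region within 1 kb.

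The widest H3K4me3 regions differed in how much FLAG they held. The widest was chr13:83852468-83882579 (mm9), 30112 bp long, where the H3K4me3 fold reached 45.0, 55.4 and 42.8. It held only 2, 5 and 1 FLAG peaks, covering 436, 1268 and 224 bp in NSH-D, NSH-E and NSH-F. The second widest, chr3:88009887-88030522, of 20636 bp, held 11, 10 and 9 FLAG peaks over 9150, 10892 and 10185 bp. FLAG thus covered a large part of the second region and very little of the first, in each culture. The region chr3:34546879-34566311 held 4, 8 and 7 FLAG peaks, and chr7:86643770-86657154 held 3, 2 and 4. At chr11:18907006-18921373, of 14368 bp, NSH-D had 0 FLAG peaks and NSH-E and NSH-F had 1 each.

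Regions with the strongest FLAG inside H3K4me3 were chosen by score, so their FLAG values are a description. The first was chr3:88031915-88035685, which begins just beyond the 20636-bp region, and FLAG covered it from end to end in all 3 cultures with a fold of 7.27, 10.9 and 7.80. H3K4me3 there was modest, with a fold of 7.36, 3.38 and 6.12. The region chr17:25697010-25698256 had a FLAG fold of 6.97, 7.72 and 7.81, and chr6:39478823-39479596 had 9.29, 10.3 and 10.4. The region chr3:88562365-88563034 had a FLAG fold of 8.80, 9.27 and 8.26, and the 20636-bp region was the last of the 5, with 8.33, 10.9 and 6.81. In the 4 narrower regions the H3K4me3 peak stood between the percentiles 12.2 and 47.4 of its list by score, so strong FLAG there sat on H3K4me3 peaks of the lower part of their lists. K27M-Tag FLAG lists also had a peak at all 5 regions in 3 of 3 cultures. For scale, 15625 FLAG regions were in all 3 WT-Tag lists and 11907 regions in all 6 FLAG lists.

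Strong FLAG regions far from H3K4me3 were present as well. The first, chr16:97218355-97220202, was 146 kb from the nearest WT-Tag H3K4me3 region and had a FLAG fold of 8.31, 9.44 and 9.71 in NSH-D, NSH-E and NSH-F. Next came chr12:83126273-83127591, at 95.7 kb, with a FLAG fold of 7.58, 9.87 and 9.91, and chr2:59804440-59805029, at 69.6 kb, with 7.58, 8.99 and 7.51. These folds overlap those of the strongest FLAG regions inside H3K4me3 named above. At chr13:43806138-43807728, at 72.1 kb, the fold was 7.82, 7.19 and 8.32. All 5 regions chosen by this rule were called in 3 of 3 K27M-Tag FLAG lists too, so they were not particular to WT-Tag.

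Some wide H3K4me3 regions had no WT-Tag FLAG within 1 kb. At chr9:91253558-91263265, of 9708 bp, H3K4me3 covered 9023, 9560 and 9650 bp with a fold of 29.7, 45.0 and 44.2, and the nearest FLAG region was 2157 bp away. At chr17:10501832-10511448, of 9617 bp, the H3K4me3 fold was 33.4, 49.5 and 42.0 and FLAG was 7166 bp away. At chr8:36650361-36658222 it was 5895 bp away. Of these 5 regions the farthest from FLAG was chr1:148339912-148347098, of 7187 bp, where the H3K4me3 fold was 23.9, 48.5 and 48.1 and the nearest WT-Tag FLAG region was 343984 bp away. K27M-Tag cultures had 2, 1 and 3 FLAG peaks in that last region, but 0, 0 and 1 in the one on chromosome 9, 3, 0 and 0 in the one on chromosome 17 and 2, 0 and 1 in the one on chromosome 8. Of the 5 regions, which were chosen for lacking WT-Tag FLAG, 2 had K27M-Tag FLAG in all 3 cultures. Over all K27M-Tag H3K4me3 peaks of 4 kb or more, FLAG was present at 95.3%, 91.3% and 97.2%. Absence from a list means that no FLAG peak passed the authors' threshold there, at a background coverage near 3 fragments per base, and not that FLAG was absent. Gene annotation of build mm9 was not used here, so the regions are given by position only.

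For each of 10 measures compared, 4 of them added later, the values of the K27M-Tag cultures did not overlap those of the WT-Tag cultures. Other measures did overlap, such as FLAG density beyond 50 kb, at 3.92 to 6.03 summits per Mb in K27M-Tag against 2.27 to 4.02, and the median host percentile under 0.5 kb, at 40.2 to 41.1 against 39.6 to 41.1. FLAG summits were inside H3K4me3 in 29.1%, 29.9% and 28.8% of cases in K27M-Tag, so that the mean share was 29.2% ± 0.576 (SD, n = 3), and WT-Tag had 15.0% ± 0.827 (SD, n = 3). The ratio of FLAG density inside H3K4me3 to that in the first 1 kb outside was 1.35, 1.42 and 1.44 in WT-Tag, while K27M-Tag had 2.48, 2.40 and 2.46. The flank was thus much closer to the peak interior in WT-Tag. At H3K4me3 peaks of 4 kb or more FLAG was present in 54.5% ± 4.80 (SD, n = 3) of cases in WT-Tag, and K27M-Tag reached 94.6% ± 3.05 (SD, n = 3). Under 0.5 kb WT-Tag had 24.4% ± 3.09 (SD, n = 3) and K27M-Tag 47.6% ± 6.24 (SD, n = 3). The ratio of FLAG density inside H3K4me3 to that beyond 50 kb was 53.2 ± 10.2 (SD, n = 3) in WT-Tag, where K27M-Tag had 99.98 ± 6.07 (SD, n = 3). Of the 10 measures, the first 6 each had a two-sided exact permutation p of 0.1, the smallest that 3 against 3 allows, and over these 6 a Benjamini-Hochberg adjusted p of 0.1.

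The shape of the width relation differed as well. From H3K4me3 peaks under 0.5 kb to those of 1 to 2 kb, FLAG presence changed by -7.86, -7.85 and -6.46 percentage points in WT-Tag and by 5.84, 3.46 and 6.41 in K27M-Tag (two-sided exact permutation p = 0.1). In hosts of 4 kb or more the median percentile of FLAG summits was 58.4 ± 0.678 (SD, n = 3) in WT-Tag, while K27M-Tag had 49.0 ± 1.16 (SD, n = 3), near the value for equal bases (two-sided exact permutation p = 0.1). In hosts with low local background the means were 56.2 and 49.2, and the groups again did not overlap. These 3 measures and the ratio to the first 1 kb were added later, so their separation and p are descriptive only. Over all 10 the adjusted p was 0.1.

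Some of these differences depended on how lists were cut or joined. The median distance of outside FLAG summits to the H3K4me3 edge was 8465 bp ± 911 (SD, n = 3) in WT-Tag and 6404 bp ± 205 (SD, n = 3) in K27M-Tag, but with equal list sizes WT-Tag was 395 bp shorter (difference -395 bp, exact permutation p = 0.6). The difference in presence at peaks under 0.5 kb was -23.3 percentage points with full lists and -10.3 with equal sizes. Inside FLAG summits stood at 195 bp ± 17.9 (SD, n = 3) from the host summit in WT-Tag and 369 bp ± 28.1 (SD, n = 3) in K27M-Tag, a difference of -174.5 bp that was -26.8 bp after joining H3K4me3 peaks across 1000 bp (exact permutation p = 0.2). The FLAG lists of K27M-Tag were the longer ones, with 57061 to 87258 autosomal peaks. At full length, list length cannot be told apart from genotype and a possibly shared control. Genotype and such a control cannot be told apart at equal list sizes either.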

How the data were processed

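The 6 WT-Tag and 6 K27M-Tag ChIP-seq peak lists were used as deposited, 1 per antibody and culture, with groups taken from the labels. Peaks are on build mm9, per the peak names in the deposited files, and the submitters' processing notes name BWA 0.7.17-r1188, MACS2 2.2.7.1, bedtools 2.29.2 and the builds mm9 and dm6, without their roles. The deposited score is 10 times the deposited −log10 q within 1 unit, and the lowest −log10 q was 2.00 to 2.05. The deposited fold is the ratio of summit pileup to local background after 1 is added to each. The threshold, the control and any use of the Drosophila spike-in are not given in the sources used here, and no value was scaled by a spike-in. Score, fold and −log10 p were used to rank, split or describe peaks within a list, and to recover a whole summit pileup and local background for 100% of peaks (relative tolerance 0.0001). Lists end at a threshold, so peak number and width move with depth, which is known only as background coverage.

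Summits (start plus the last column) and edges on chromosomes 1 to 19 were related with Python 3.11.15, numpy 2.4.6, pandas 2.3.3 and scipy 1.17.1. A FLAG summit was inside where it lay in an H3K4me3 peak, and presence was an overlap of at least 1 bp. Densities used the 2410 Mb span between the first and last peak of each chromosome. Cultures are the replicates, and genotype means, 3 against 3, were tested by exact permutation, two-sided. Named regions were, 5 per rule, the widest H3K4me3 regions, those with the highest lowest-percentile FLAG score inside, the same for FLAG over 50 kb away, and the widest without FLAG within 1 kb; 2 of them are not printed by position. Members, classes and rules were chosen with earlier results of these data known. Alternatives were higher-scoring FLAG peaks, equal list sizes, a −log10 q of at least 4, joined H3K4me3 peaks, all chromosomes, other overlap rules and width classes, and leaving out cultures. A limit on local background was added after seeing the data. The code was tested on simulated data. Input samples and gene annotation were not used here.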

Additional observations from a re-analysis of the deposited data

Results flagged for a closer look

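Between the narrowest H3K4me3 peaks and those of 0.5 to 1 or 1 to 2 kb, FLAG presence moved in opposite directions in the 2 genotypes, while the widest peaks exceeded the narrowest in both. From H3K4me3 peaks under 0.5 kb to those of 0.5 to 1 kb, it changed by a mean of -3.15 percentage points in WT-Tag (-4.40, -2.82 and -2.23 in the 3 cultures) and by 1.26 points in K27M-Tag (1.46, 1.12 and 1.21), and this difference was not tested. From under 0.5 kb to 1 to 2 kb the mean change was -7.39 points in WT-Tag and 5.24 points in K27M-Tag (two-sided exact permutation p = 0.1, the smallest that 3 against 3 allows). Both steps were flagged because the genotypes differed in direction, so this p is descriptive only. Counted by a FLAG summit inside the peak, the same 2 steps were 3.28 and -0.46 points in WT-Tag and 14.2 and 21.8 points in K27M-Tag, so the first step then had the same sign in both. The local background at these H3K4me3 peaks was higher in WT-Tag, above 1.5 times the background coverage at 43.5% to 45.3% of peaks of 1 to 2 kb against 10.9% to 13.6% in K27M-Tag. Among WT-Tag peaks of that width FLAG presence was 19.02% ± 3.76 (SD, n = 3) below that limit and 14.4% ± 2.59 (SD, n = 3) above it. Among those under 0.5 kb it was 24.3% ± 2.94 (SD, n = 3) below and 24.9% ± 3.76 (SD, n = 3) above. Between these classes presence below the limit thus still fell in WT-Tag, in each culture. In K27M-Tag the mean went from 47.3% to 53.2% below the limit, rising in each culture, and from 52.1% to 50.7% above it. The part of the local background was not tested.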

How the results depend on the processing

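Of 37 alternative values of the WT-Tag means, 28 stayed within 1 SD of the cultures. With the top 50% of FLAG peaks by score, the share of FLAG summits inside H3K4me3 was 17.7%, the density ratio to beyond 50 kb 65.5, presence at peaks of 4 kb or more 37.0% and under 500 bp 17.2%, and the median distance to the host summit 158 bp. A FLAG −log10 q of at least 4 gave a share inside of 15.8% and a presence at the widest peaks of 49.3%, which equal list sizes put at 48.1%. Joining H3K4me3 peaks moved the distance to the host summit to 510 bp. Of 36 alternatives of the genotype differences, 1 reversed, the outside edge distance with equal list sizes (-395 bp). Leaving out cultures kept every direction. The WT-Tag contrast of widest to narrowest peaks ran from 28.8 to 31.3 points, the share inside from 14.6% to 15.4%, and its difference from K27M-Tag from -14.7 to -13.8 points. With the experiment number as a replicate block, the difference in the share inside was -14.2 points with an exact sign-flip permutation p of 0.25, the smallest for 3 pairs, and no direction changed. The labels do not say whether the numbers mark a batch. Over 11907 FLAG regions in all 6 lists the correlation of same-numbered deviations was 0.00357, 0.0101 and 0.0130. Differently numbered cultures ran from -0.0173 to 0.00585. Deviations of FLAG peaks alone cannot tell whether same-numbered cultures shared a batch. At a background coverage near 3 fragments per base the median called FLAG summit had 19 to 22 fragments, and weaker FLAG may not have been called.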
